A study of Rattus with 6 samples.

Results

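Ion channel genes whose symbols begin with Kcn followed by a letter, with Cacna, Cacnb or Cacng, or with Scn and a digit were taken from a table of 30211 rat genes. They numbered 132: 92 potassium channel genes, 26 voltage-gated calcium channel genes and 14 voltage-gated sodium channel genes, pore-forming and auxiliary subunits included. RNA had been sequenced from wild-type rat bone marrow mesenchymal stem cells (BMSC), the adherent stromal cells of marrow, grown to 80% and then kept for 4 days. In 3 control libraries the cells had no dexamethasone, and in 3 others they had 100 uM dexamethasone, a synthetic glucocorticoid. The labels state neither a vehicle for the controls nor whether the 3 libraries of a group came from separate cultures or animals. The p-values therefore reflect only how much these libraries differed within a group, which may be technical.

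Potassium channels let potassium leave the cell and hold the resting membrane potential below zero, while voltage-gated sodium and calcium channels open on depolarisation and let positive charge in. A calcium channel is built from a pore-forming alpha-1 subunit with alpha-2/delta and beta subunits that carry it to the membrane and tune its gating. Marrow stromal cells are not excitable in the manner of neurons, and channel activity in such cells is best known for its part in calcium signalling, volume control, proliferation and the response to mechanical load.

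Library totals ranged from 34835072 to 41676315 counts. The labels' treatment tag reads the same in all 6 libraries, so the groups rest on the titles. Fkbp5, Tsc22d3 and Per1, established targets of the glucocorticoid receptor, were higher in 3 of 3 libraries titled dexamethasone, with log2 fold changes of 4.30, 2.88 and 1.63. Levels are given as CPM, read counts brought to a common depth with TMM factors. All 8 defining stromal markers were tested, and 2 rose and 5 fell (25% and 62.5%, beside 32.3% of all tested genes higher and 31.7% lower). Thy1 stood at 133 and 134 CPM in control and dexamethasone, Pdgfra at 598 and 965 CPM, and Itgb1 at 1299 and 973 CPM, while Pdgfrb fell from 616 to 137 CPM. Markers of excitable cells, which are rich in these channels, were also measured. Of 10 neuron markers, Rbfox3 and Gap43 had no count. Only 3 were tested, of which 1 rose, 1 fell and 1 was not called (33.3% higher and 33.3% lower, by the same background). The summed level ran from 48.2 to 49.6 CPM in control libraries and 68.6 to 74.0 CPM in treated ones. Of these sums, Nefh gave 46.4 and 69.9 CPM. The 10 cardiac and skeletal muscle markers summed to 27.3 to 28.6 CPM and 16.0 to 17.8 CPM, Tnnt3 giving 24.0 and 14.6 CPM and Myog no count. The 8 smooth muscle markers summed to 470 to 476 CPM and 599 to 602 CPM, and 3 of them rose and 4 fell (37.5% and 50%, by the same background). Lmod1 rose from 4.17 to 149 CPM and Myocd from 1.09 to 4.93 CPM, Tagln fell from 48.2 to 6.88 CPM and Acta2 from 3.01 to 0.382 CPM, and Myh11, at 48.1 and 47.7 CPM, was not called. These sums moved between the groups, and their part in the results on channel genes was not tested. In bulk RNA, fewer cells that carry a transcript and less of it per cell cannot be told apart.

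Most channel genes had few counts or none. No count was found in any library for 39 of the 132, and a further 54 had too few counts to be tested, with group means of at most 0.451 CPM. A total of 39 were tested, and these held 98.8% of the summed CPM of all members in the controls. Only 11 of them averaged at least 5 CPM over the 6 libraries. Of the tested genes, 9 were under the filter's minimum in at least 1 library, so some of them were tested because 1 group was high.

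Among the 39 channel genes put to the test, 14 rose, 13 fell and 12 were not called at an adjusted p below 0.05 (edgeR's quasi-likelihood test, Benjamini-Hochberg over 14111 genes). That is 69.2% called, 35.9% higher and 33.3% lower, beside 64% of all tested genes, 32.3% higher and 31.7% lower, so the share of channel genes called was near the background. Sizes were larger: the median absolute log2 fold change was 0.68, beside 0.31 for all tested genes. This was not particular to channel genes, as it was 0.615 in the lists of related genes given below and 0.816 in the marker lists. None of these comparisons was matched for level, and only 11 of the 39 channel genes averaged at least 5 CPM. Among channel genes, at least 2-fold rises numbered 8 (20.5%, beside 8.65% of all tested genes) and at least 2-fold falls 8 (20.5%, beside 7%). In the lists of related genes these shares were 13.8% and 20.2%, and in the marker lists 8.82% and 26.5%. Of the channel genes, 2 rose and 6 fell at least 4-fold (beside 2.93% and 2.96% of all tested genes). Groups did not overlap for 13 members that were higher and 14 that were lower (33.3% and 35.9%), beside 66.9% of all tested genes, 33.8% higher and 33.1% lower. The median log2 fold change was -0.17, beside 0.00 over all tested genes. Replicates were close, with a biological coefficient of variation near 3.66%, so 2 other settings were tried: a wider-spread setting with a biological coefficient of variation of 0.2, and a test against a change of 1.5-fold. The wider-spread setting called 9 rises and 10 falls (beside 26.2% of all tested genes, 14.1% higher and 12% lower), and the 1.5-fold test 7 rises and 9 falls (beside 20%, 11% higher and 9.06% lower). Of the 27 calls, 16 held in both settings, 7 rises and 9 falls. By ion, potassium channel genes had 9 rises and 5 falls among 22 tested, calcium channel genes 2 rises and 6 falls among 12, and sodium channel genes 3 rises and 2 falls among 5.

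**Figure D1:**
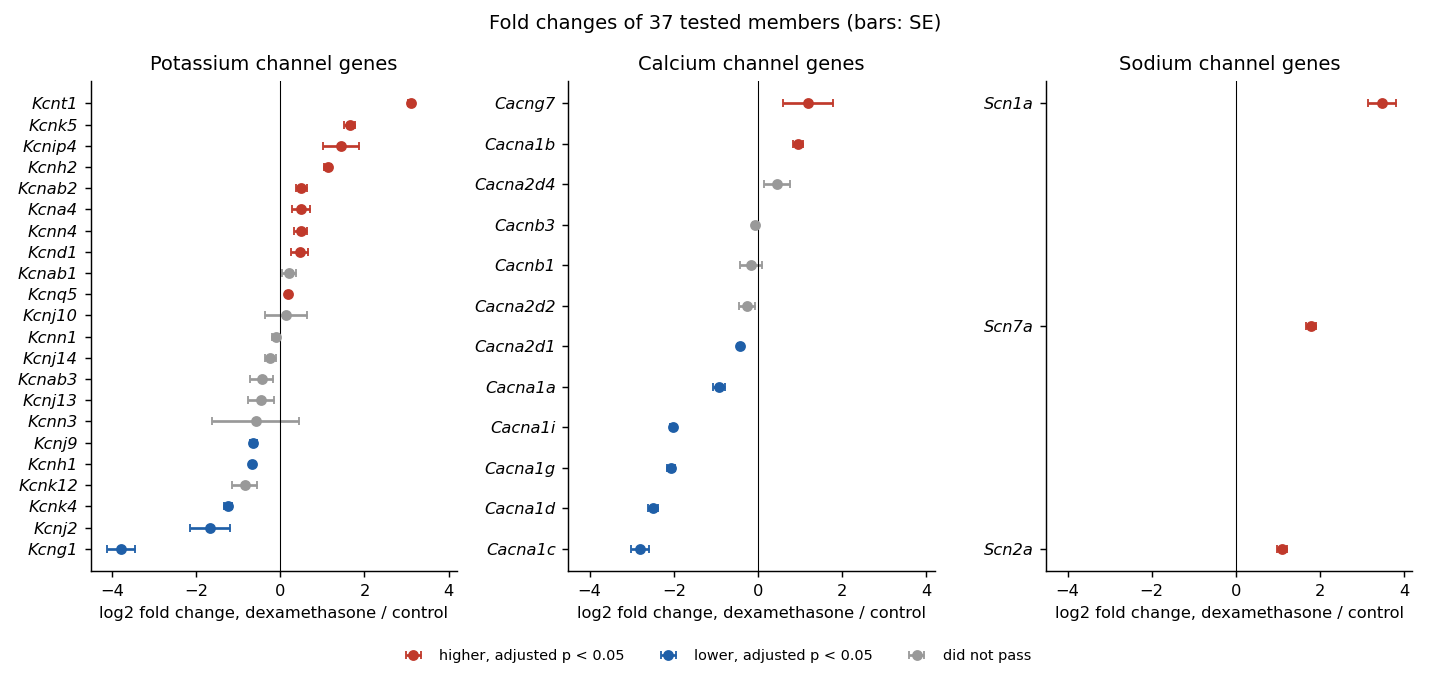
Log2 fold change, dexamethasone over control, of 37 tested channel genes by ion, with bars for the SE (n = 3 libraries per group) and colour for the call. Pore-forming calcium channel genes lie mostly to the left, with Cacna1c lowest at -2.81, while Kcnt1 (3.10) and Scn1a (3.47) lie farthest to the right.

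Pore-forming calcium channel subunits mostly fell. Of 10 alpha-1 genes in the table, 6 were tested, of which 5 fell and 1 rose (beside 31.7% and 32.3% of all tested genes), and 4 of the falls were at least 4-fold. Summed over all 10 alpha-1 genes and divided by exon length, the level was 7.04, 7.07 and 7.48 CPM per kilobase in the controls and 2.03, 2.15 and 2.21 CPM per kilobase with dexamethasone, 3.38-fold lower by the ratio of the means. Every dexamethasone library was below every control.

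T-type channels, which open at small depolarisations near the resting potential, made up most of this sum. Cacna1g (chromosome 10, 82129506 to 82197848, in the coordinates of the deposited table) had 29.8, 30.3 and 32.8 CPM in control libraries and 6.89, 7.03 and 8.23 CPM in treated ones, a log2 fold change of -2.07 ± 0.091 (SE) with an adjusted p of 4.5e-27 (edgeR's quasi-likelihood test). Cacna1i (chromosome 7, 121511097 to 121619283) measured 10.6, 10.9 and 10.3 CPM against 2.75, 2.67 and 2.41 CPM, a log2 fold change of -2.02 ± 0.061 (adjusted p = 7.9e-20, edgeR). The 2 genes therefore fell by nearly the same factor, 4.19 and 4.07. Cacna1h, the remaining T-type gene, had 0 and 2 counts in the groups and was not tested. T-type genes held 76.9% to 78.1% of the alpha-1 sum per kilobase in the controls and 60.4% to 64.3% with dexamethasone.

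L-type channels, the slowly inactivating channels that dihydropyridine drugs block, also fell. Cacna1d (chromosome 16, 6112150 to 6405117) had 6.66, 6.36 and 6.42 CPM in control libraries and 1.07, 1.36 and 1.03 CPM in treated ones, 5.64-fold lower (adjusted p = 2.8e-18, edgeR). Cacna1c (chromosome 4, 150641066 to 150829913) measured 2.33, 2.56 and 2.62 CPM against 0.426, 0.397 and 0.246 CPM, 6.99-fold lower (adjusted p = 1.6e-12, edgeR). For both genes the groups were far apart. The other L-type genes, Cacna1f and Cacna1s, had at most 21 counts per group and were not tested. Per kilobase, the L-type sum went from 1.03 ± 0.040 to 0.1998 ± 0.035 CPM (SD, n = 3).

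The alpha-1 genes of the channels that drive transmitter release at synapses went in opposite directions. Cacna1a, of P/Q-type channels, had 3.55, 3.47 and 3.85 CPM in control libraries and 1.59, 2.01 and 2.14 CPM in treated ones, a log2 fold change of -0.92 ± 0.14 (adjusted p = 6.0e-06, edgeR). Cacna1b, of N-type channels, had 1.92, 1.60 and 1.999 CPM against 3.27, 3.86 and 3.50 CPM, a log2 fold change of 0.94 ± 0.12 (adjusted p = 4.9e-06, edgeR). Of the 6 alpha-1 genes tested, Cacna1b was the 1 called higher. With the R-type gene Cacna1e, at 4 and 8 counts, this class summed to 0.601 ± 0.049 and 0.590 ± 0.064 CPM per kilobase (SD, n = 3), a difference smaller than the spread between libraries.

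Among 5 tested genes of the alpha-2/delta and beta subunits, 1 fell and 4 were not called (beside 31.7% of all tested genes lower). Cacna2d1 (chromosome 4, 15710417 to 16130848), the alpha-2/delta subunit that gabapentin binds, had 54.6, 51.8 and 53.9 CPM in control libraries and 41.2, 40.4 and 37.9 CPM in treated ones. It was 1.34-fold lower (adjusted p = 6.4e-11, edgeR), a call that was lost in the wider-spread setting (adjusted p = 0.203) and in the 1.5-fold test (adjusted p = 1). Cacnb3 (chromosome 7, 140315368 to 140324902), a beta subunit, had 21.7, 22.5 and 21.6 CPM against 22.2, 20.7 and 19.98 CPM, with overlapping groups and a log2 fold change of -0.06 ± 0.047 that did not pass (adjusted p = 0.390, edgeR). Cacna2d2, Cacna2d4 and Cacnb1 did not pass either, with log2 fold changes of -0.26, 0.45 and -0.17. Without control replicate 2, which had the lowest Cacna2d2 level at 4.64 CPM beside 7.03 and 5.67 CPM, Cacna2d2 was called lower (adjusted p = 0.0112, over a range of 0.0112 to 1 in the alternatives tried).

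Rises among other auxiliary calcium channel genes were at levels near the floor. Cacng7, a gamma subunit that also regulates AMPA-type glutamate receptors, had 0.052, 0.203 and 0.275 CPM in control libraries and 0.426, 0.567 and 0.246 CPM in treated ones, overlapping groups with 21 and 48 counts in all. It passed the filter through the treated libraries, as only 1 control was over the minimum. Its call (adjusted p = 0.0395, edgeR) was lost without control replicate 1 (0.229) or 2 (0.0622) and without dexamethasone replicate 1 (0.0907) or 2 (0.188). The call was also lost with no filter (0.071), in the 1.5-fold test (0.217) and with DESeq2 (0.0886). Cacnb2, named after its values were seen, had 0, 4 and 4 counts in control libraries and 10, 15 and 19 in treated ones, and was under the filter with all 6 libraries. It was called higher without the filter (adjusted p = 0.00193, edgeR) and in the 4 filtered fits that tested it, each with 1 library left out (adjusted p from 0.000859 to 0.0143). In those 4 fits Cacnb2 passed the filter through treated libraries only, and the fits share libraries, so they are not separate support.

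**Figure D2:**
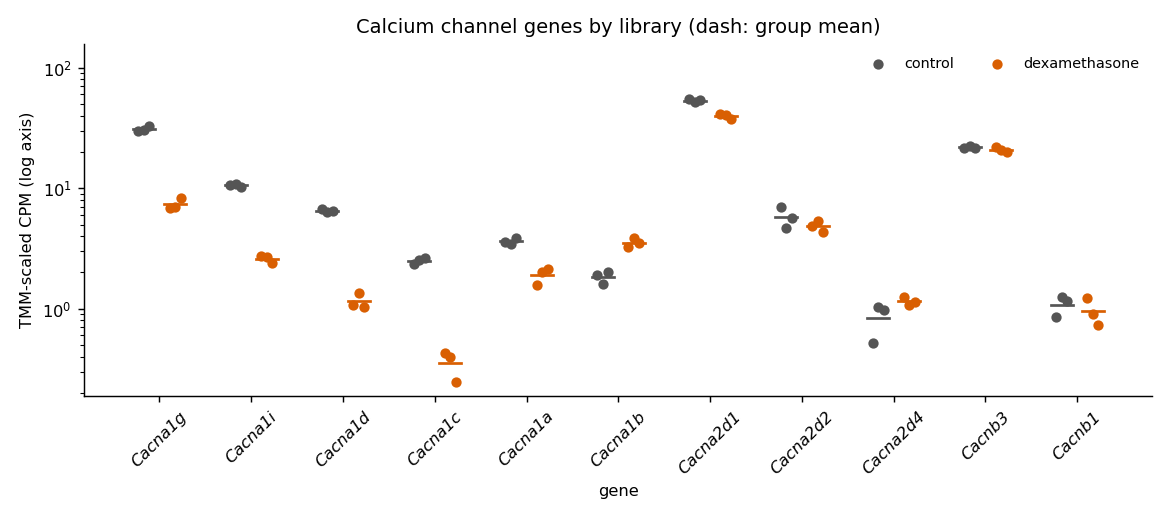
TMM-scaled CPM of calcium channel genes in each library on a log axis, controls in grey and dexamethasone in orange, with a dash for the group mean (n = 3). The T-type genes Cacna1g and Cacna1i and the L-type genes Cacna1d and Cacna1c drop between groups that do not overlap, Cacna1b rises, and the groups of Cacnb3, Cacnb1 and Cacna2d2 overlap.

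Voltage-gated sodium channel genes changed in both directions. Of 10 alpha genes, 4 were tested, with 3 rises and 1 fall (beside 32.3% and 31.7% of all tested genes), and each of the 4 changes was at least 2-fold. Scn1a (chromosome 3, 52381975 to 52510507), a sodium channel of neurons, had 0.156, 0.253 and 0.400 CPM in control libraries and 3.13, 2.81 and 3.15 CPM in treated ones, a log2 fold change of 3.47 ± 0.33 (adjusted p = 4.3e-15, edgeR). The controls held only 32 counts in all against 359. Scn1a passed the filter through the treated libraries, as only 1 control was over its minimum. Scn7a (chromosome 3, 52777214 to 52849907), an atypical member of the family that responds to the sodium concentration and not to voltage, had 0.674, 0.836 and 0.675 CPM against 2.51, 2.75 and 2.34 CPM, 3.46-fold higher (adjusted p = 3.5e-09, edgeR). Scn2a (chromosome 3, 51687809 to 51822250), also a neuronal channel, measured 4.95, 3.85 and 4.42 CPM against 9.12, 9.08 and 10.1 CPM, 2.14-fold higher (adjusted p = 8.6e-12, edgeR). In all 3 genes the groups did not overlap.

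The 3 sodium channel genes that rose lie in 1 stretch of chromosome 3 together with Scn3a (51532627 to 51643140) and Scn9a (52583951 to 52664209). Those neighbours stayed near the floor, Scn3a with 20 counts in control libraries and 23 in treated ones and Scn9a with 0 and 2. The labels and the table do not state how reads that fit several related genes were counted, so the split of reads among these similar genes carries that uncertainty.

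Summed over the 10 alpha genes, sodium channel transcripts ran from 6.94 to 7.73 CPM in control libraries and from 15.1 to 16.2 CPM in treated ones.

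**Figure D3:**
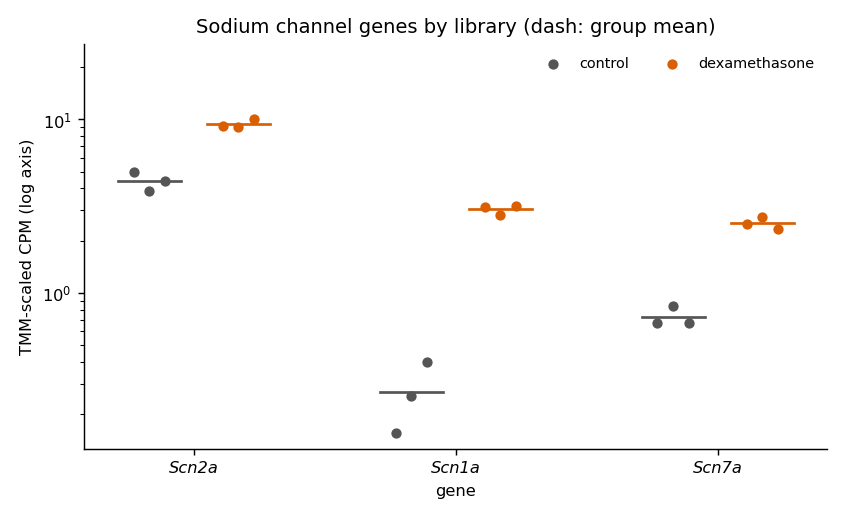
TMM-scaled CPM of 3 sodium channel genes in each library on a log axis, controls in grey and dexamethasone in orange, with a dash for the group mean (n = 3). Scn2a, Scn1a and Scn7a are higher in every dexamethasone library than in any control.

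Among the tested potassium channel genes, the largest rise was in a channel opened by internal sodium. Kcnt1 (chromosome 3, 3310954 to 3365340), which encodes that channel, known as Slack, had 2.93, 2.69 and 2.95 CPM in control libraries and 25.3, 24.7 and 23.5 CPM in treated ones. This was a log2 fold change of 3.10 ± 0.054 (adjusted p = 1.4e-30, edgeR), or 8.57-fold higher, and the smallest adjusted p of the 39 tested channel genes. Its relative Kcnt2 had 0 counts in control libraries and 2 in treated ones.

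Among potassium channels opened by calcium, 1 of 3 tested genes rose (beside 32.3% of all tested genes). Kcnn4, the intermediate-conductance channel known from lymphocytes, red cells and proliferating fibroblasts, had 4.07, 4.18 and 5.50 CPM in control libraries and 5.97, 6.49 and 6.77 CPM in treated ones. It was 1.40-fold higher (adjusted p = 7.5e-04, edgeR), a call lost in the wider-spread setting (0.156) and in the 1.5-fold test (1). The small-conductance genes Kcnn1 and Kcnn3 did not pass, with log2 fold changes of -0.11 ± 0.082 and -0.58 ± 1.03. Kcnma1, which encodes the large-conductance channel (chromosome 15, 344360 to 1047956), and its beta subunit gene Kcnmb1 had no count in any library, a floor of up to 0.170 CPM. Whether the annotation or the counting left out reads of Kcnma1 cannot be seen from the table, so its 0 is not read as a level. Another beta subunit gene, Kcnmb4, had no count in 3 controls and 10, 4 and 7 counts with dexamethasone, for which the exact 95% binomial interval of the ratio on read pairs has a lower limit of 2.51. It was under the filter in every filtered fit and was called where no filter was applied (adjusted p = 0.00197, edgeR). It is named after its values were seen.

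Voltage-gated potassium channel alpha genes were the largest family, with 38 in the table and 6 tested, of which 4 rose and 2 fell (beside 32.3% of all tested genes higher and 31.7% lower). Kcnq5 (chromosome 9, 27562959 to 27761733), a slow, non-inactivating channel of the M-current type, was the most abundant, at 51.2, 47.3 and 48.5 CPM in control libraries and 56.5, 55.1 and 54.0 CPM in treated ones. Groups did not overlap, but the rise was 1.13-fold (adjusted p = 6.7e-04, edgeR) and passed neither the wider-spread setting (0.693) nor the 1.5-fold test (1). Its relative Kcnq3 had no count, and Kcnq1 had 11 and 6 counts.

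The EAG family, whose members include the cardiac repolarising channel hERG, split. Kcnh1, the founding EAG gene (chromosome 13, 110920737 to 111232269), had 8.06, 8.79 and 8.57 CPM in control libraries and 5.21, 5.19 and 5.44 CPM in treated ones, 1.60-fold lower (adjusted p = 2.7e-07, edgeR, and 0.274 in the 1.5-fold test). Kcnh2, which encodes hERG and is named after its values were seen, had 0.622, 0.583 and 0.650 CPM against 1.45, 1.39 and 1.23 CPM, 2.19-fold higher (adjusted p = 4.3e-04, edgeR). For neither gene did the groups overlap.

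Kcnd1, which encodes a rapidly inactivating, A-type channel, had 5.19, 3.55 and 5.52 CPM in control libraries and 6.44, 7.03 and 6.16 CPM in treated ones, 1.38-fold higher (adjusted p = 0.00222, edgeR). The lowest control was replicate 2, and without it the call was lost (adjusted p = 0.0523), as it was in the wider-spread setting (0.183) and in the 1.5-fold test (1). Kcna4, an A-type gene of another family, named after its values were seen, had 2.46, 1.80 and 1.87 CPM against 3.48, 2.33 and 2.73 CPM. Its groups overlapped, and its call (adjusted p = 0.0194, edgeR) was lost without control replicate 2 (0.089) or 3 (0.0747), without dexamethasone replicate 1 (0.19), in the wider-spread setting (0.195) and in the 1.5-fold test (1). Kcnd3, another A-type gene, also named afterwards, had 13 counts in control libraries and 52 in treated ones and was under the filter with all 6 libraries. It was called higher without the filter (adjusted p = 0.0033, edgeR) and in the 4 filtered fits that tested it, each with 1 library left out (adjusted p from 0.000606 to 0.0195). As for Cacnb2, those 4 fits tested it through treated libraries only and are not separate support.

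Kcng1 had the largest fall among the 39 tested channel genes, and it passed the filter through the controls alone. It encodes an electrically silent subunit that forms no channel alone and modifies other voltage-gated subunits (chromosome 3, 165020230 to 165039707). Levels were 2.49, 2.33 and 1.60 CPM in control libraries and 0.095, 0.227 and 0.148 CPM in treated ones, a log2 fold change of -3.78 ± 0.33 (adjusted p = 3.6e-13, edgeR). On read pairs, 252 and 18 counts gave a ratio of 14 (exact 95% binomial interval 7.15 to 31.3).

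Of the 13 auxiliary genes of voltage-gated potassium channels, 4 were tested, of which 2 rose and 2 did not pass (beside 32.3% of all tested genes higher and 31.7% lower). Kcnab2, a cytoplasmic beta subunit related to aldo-keto reductases, had 1.74, 1.98 and 2.05 CPM in control libraries and 3.06, 2.78 and 2.34 CPM in treated ones. Groups did not overlap at 1.42-fold (adjusted p = 0.0134, edgeR), but the call was lost without control replicate 1 (0.0598), without dexamethasone replicate 1 (0.0806), in the wider-spread setting (0.171) and in the 1.5-fold test (1). Kcnab1 and Kcnab3 did not pass (log2 0.21 and -0.44). Kcnip4, a calcium-binding partner of A-type channels named after its values were seen, had 15 and 41 counts, a ratio of dexamethasone to control of 2.62 on read pairs (exact 95% binomial interval 1.12 to 6.85). It passed the filter through the dexamethasone libraries alone. Its call (adjusted p = 0.0209, edgeR) was lost without control replicate 2 (0.125), without dexamethasone replicate 2 (0.114), with DESeq2 (0.0525), with no filter (0.0523) and in the 1.5-fold test (0.118).

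Inward rectifiers, which pass potassium most easily near the resting potential, were low, and of 5 tested among 15, 2 fell and 3 did not pass (beside 31.7% of all tested genes lower). Kcnj2, the classical strong rectifier (chromosome 10, 99437436 to 99439114), is named after its values were seen. It had 1.24, 1.19 and 0.975 CPM in control libraries and 0.426, 0.510 and 0.148 CPM in treated ones. This was 3.16-fold lower (log2 -1.66 ± 0.48, adjusted p = 6.9e-05, edgeR). Kcnj2 passed the filter through the controls, as only 2 treated libraries were over its minimum. Dexamethasone replicate 3 had 6 counts, at the floor. Kcnj9, a subunit of G-protein-gated channels, had 2.05, 2.13 and 1.90 CPM against 1.30, 1.42 and 1.18 CPM, 1.56-fold lower (adjusted p = 0.00763, edgeR), but it passed neither the wider-spread setting (0.0762) nor the 1.5-fold test (0.656). Groups of both genes stood apart. Kcnj14, the most abundant rectifier, had 3.71, 4.59 and 3.55 CPM against 3.62, 3.32 and 3.08 CPM, with overlapping groups, and did not pass (log2 -0.24 ± 0.13, adjusted p = 0.152, edgeR). Kcnj13 (log2 -0.46) and Kcnj10 (0.14) did not pass either, and 355 bases of Kcnj13 overlap exons of Gigyf2, a far more counted gene on the opposite strand. The ATP-sensitive channel genes Kcnj8 and Kcnj11 had no count in any library, and their sulfonylurea receptor partners Abcc8 and Abcc9 stood at most at 0.033 CPM in either group.

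Background potassium channels of the two-pore-domain family, which are open at rest, moved in both directions. Kcnk4 (chromosome 1, 222183276 to 222189604), the mechanically gated channel TRAAK, had 4.25, 3.72 and 4.50 CPM in control libraries and 1.82, 1.64 and 1.82 CPM in treated ones, 2.35-fold lower (adjusted p = 9.6e-09, edgeR). Kcnk5 (chromosome 15, 4554603 to 4597000), an alkali-activated channel of the TASK group known for volume regulation, had 0.882, 0.811 and 0.750 CPM against 2.94, 2.47 and 2.27 CPM, 3.14-fold higher (adjusted p = 1.4e-08, edgeR). The groups of both genes were apart. Kcnk12, of the same family, did not pass (log2 -0.85 ± 0.29, adjusted p = 0.0883, edgeR). Its groups of 54 and 30 counts did not overlap, as was so for 66.9% of all tested genes. Kcnk12 was tested through the controls, as only 1 treated library was over the filter's minimum. Kcnk2, the stretch-activated relative of Kcnk4, had only 12 and 16 counts and was not tested.

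**Figure D4:**
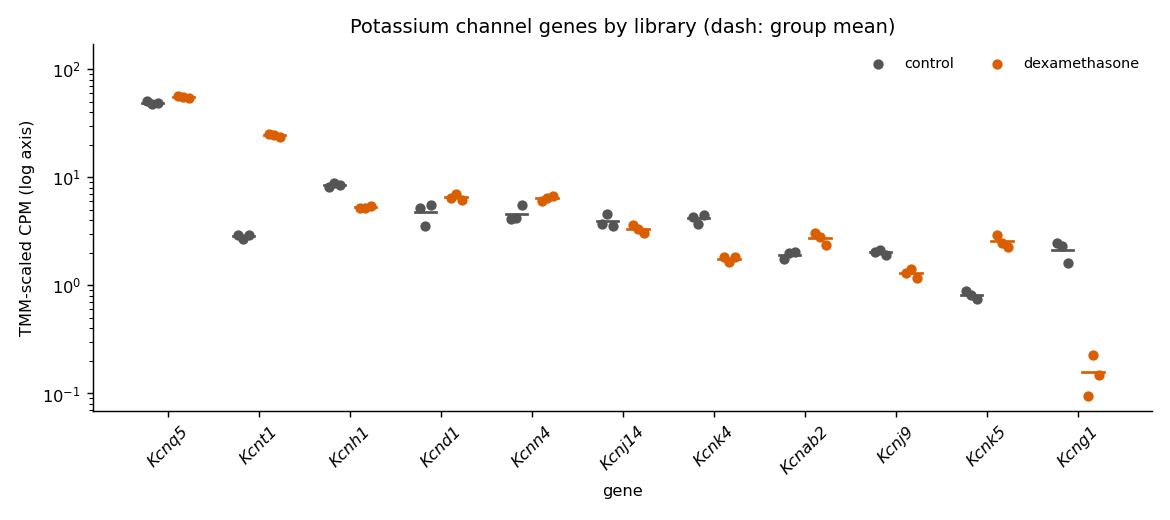
TMM-scaled CPM of potassium channel genes in each library on a log axis, controls in grey and dexamethasone in orange, with a dash for the group mean (n = 3). Kcnt1 rises from below 3 CPM to above 23 CPM, Kcnk5 rises, Kcnk4 and Kcng1 fall, and Kcnq5 stays within 47.3 to 56.5 CPM.

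Levels of different genes were compared after division by exon length. Among the genes reported here, Cacna2d1 stood highest in the controls, at 13.1 ± 0.35 CPM per kilobase (SD, n = 3), followed by Cacnb3 (8.69 ± 0.18), Kcnq5 (7.51 ± 0.30), Cacna1g (4.04 ± 0.21), Kcnk4 (3.48 ± 0.33) and Kcnn4 (2.10 ± 0.36). Values of neighbours in this order did not overlap. With dexamethasone the order was Cacna2d1 (9.79 ± 0.43), Kcnq5 (8.47 ± 0.19), Cacnb3 (8.31 ± 0.44), Kcnt1 (4.18 ± 0.16), Kcnn4 (2.93 ± 0.19) and Kcnd1 (1.76 ± 0.12). Here Kcnq5 and Cacnb3 overlapped. Kcnt1, at 0.488 ± 0.025 CPM per kilobase in the controls, came directly after the 3 most abundant genes, where Cacna1g stood in the controls, and Cacna1g dropped to 0.963 ± 0.096.

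**Figure D5:**
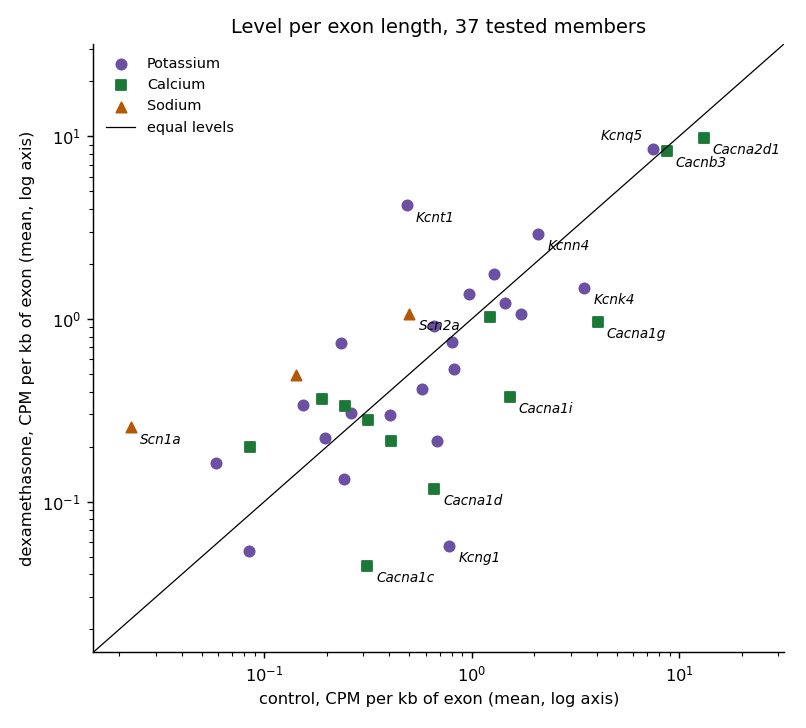
Mean CPM per kilobase of exon in the controls (x) and with dexamethasone (y) for 37 tested members, on log axes, with a line where both are equal. Cacna2d1, Cacnb3 and Kcnq5 lie at the top near the line, Kcnt1 and Scn1a far above it, and Cacna1g, Cacna1d, Cacna1c and Kcng1 below it.

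Other genes that set ion flow across the membrane or act on these channels were counted in 6 lists of 162 genes present in the table. Among the 94 that were tested there were 29 rises, 38 falls and 27 genes without a call, or 30.9% and 40.4%, beside 32.3% and 31.7% of all tested genes. Among 14 tested regulators of calcium channels, 5 rose and 6 fell (35.7% and 42.9%, beside 32.3% of all tested genes higher and 31.7% lower). Gem, a small GTPase that inhibits voltage-gated calcium channels, rose from 5.69 ± 0.16 to 24.2 ± 0.14 CPM (SD, n = 3), and Stac, an adaptor of L-type channels, fell from 3.77 ± 0.77 to 0.174 ± 0.17 CPM. Rrad, which inhibits the same channels as Gem and is named after its value was seen, rose by 1.69 on the log2 scale.

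Genes of calcium stores and store-operated entry had 7 rises and 5 falls among 17 tested (41.2% and 29.4%, beside 32.3% of all tested genes higher and 31.7% lower). Itpr1, a calcium release channel of the endoplasmic reticulum, rose from 48.4 ± 1.16 to 216 ± 8.15 CPM (SD, n = 3), and Stim1, the sensor of store calcium, from 59.7 ± 2.21 to 139 ± 0.91 CPM. Orai2, a pore gene of that entry pathway named after its value was seen, fell by 0.95 on the log2 scale. Ryanodine receptor genes Ryr1 and Ryr2 were at most 0.202 CPM in either group.

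Sodium and potassium pumps and cotransporters had 5 rises and 7 falls among 13 tested (38.5% and 53.8%, beside 32.3% of all tested genes higher and 31.7% lower). Atp1b1, the beta subunit of the sodium pump, rose from 17.2 ± 1.05 to 145 ± 5.35 CPM (SD, n = 3), while Fxyd5, which modulates the pump, fell from 45.2 ± 2.43 to 10.8 ± 1.39 CPM. Of 10 tested partners of potassium and sodium channels, 3 rose and 3 fell (30% each, by the same background). Sgk1, a kinase that raises the surface number of several channels, rose from 75.7 ± 2.95 to 310 ± 3.16 CPM, and Amigo1, an auxiliary protein of voltage-gated potassium channels, fell from 2.62 ± 0.34 to 1.24 ± 0.26 CPM.

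Other cation channels had 4 rises and 8 falls among 21 tested (19% and 38.1%, beside 32.3% of all tested genes higher and 31.7% lower). Piezo2, a mechanically gated channel, fell from 2.06 ± 0.47 to 0.118 ± 0.022 CPM (SD, n = 3), and Trpv2 from 13.6 ± 1.22 to 1.73 ± 0.13 CPM. Chloride channels had 5 rises and 9 falls among 19 tested (26.3% and 47.4%, by the same background). Lrrc8d and Lrrc8b, subunits of the volume-regulated anion channel, fell from 30.7 ± 2.27 to 5.23 ± 0.50 CPM and from 24.6 ± 0.76 to 4.88 ± 0.20 CPM, while Lrrc8a, the subunit that channel requires and named after its value was seen, rose by 0.44 on the log2 scale. Adjusted p-values of the 12 partner genes given here with both levels did not exceed 1.2e-05 in edgeR's quasi-likelihood test.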

How the data were processed

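Total RNA was made into libraries with a SMARTER mRNA-seq kit, per the labels' protocols. The authors deposited read counts per gene for the 6 libraries in 1 table, with each gene's exon positions and summed exon length per the file headers. Neither labels nor headers name an aligner, counter, strand setting or annotation. The only build in the submitters' processing notes is mm10, of the mouse, but all 132 member symbols were in a rat RefSeq gene table (assembly GRCr8) on the same chromosome. Coordinates are those of the deposited table, whose rat build the headers do not name.

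Low values came mostly in steps of 2 (70.3% of values from 1 to 20 were even), so the floor was 6 counts, taken as 3 read pairs (0.142 to 0.170 CPM by library), and intervals used counts divided by 2 and rounded up. No molecular identifiers are stated, reads may be copies of 1 molecule, and intervals and floors cover counting error only. Replicates differed by more than sampling noise (chi-square per gene of 2.88 to 4.91 between libraries of a group, where read pairs give 2).

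Genes were filtered with filterByExpr by group (minimum count 10), then TMM factors computed and the test run in edgeR 4.0.16 with R 4.3.3 (robust quasi-likelihood fit, dexamethasone against control, no covariate, Benjamini-Hochberg over 14111 genes). SE came from log2 CPM with a prior count of 2. In simulated data for this comparison with 14111 genes, 44 of 48 genes changed 1.5-fold and 48 of 49 changed 2-fold were recovered. Of genes changed 1.2-fold, 25 of 50 were recovered, and there were 12 false calls in all. Recovery was not broken down by level, and only 11 of the tested channel genes averaged at least 5 CPM. These shares therefore do not give the recovery for channel genes, most of which had low counts.

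The rule for values by library chose 24 members, some of which are not reported here: the 12 with the highest CPM per kilobase, up to 12 rises and 12 falls that were called, had a mean of at least 1 CPM and did not overlap, and the best tested member of a family not yet included. In each partner list, the 2 called genes of at least 1 CPM with the largest change were named. The members, lists and tests were chosen with earlier results of these data known. Alternatives were library size scaling, DESeq2 1.42.0, limma-voom 3.58.1, no filter, a filter of 1 CPM in 3 libraries, a coefficient of variation of 0.2, a test against a fold of 1.5, a replicate block and leaving out each library.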

Additional observations from a re-analysis of the deposited data

How the results depend on the processing

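The 14 rises and 13 falls among channel genes came to 12 to 15 rises and 12 to 13 falls with library size scaling, DESeq2, limma-voom, no filter and the filter of 1 CPM. Among all genes fitted (12333 to 20392 by setting), these settings called 4294 to 4981 higher and 4032 to 4494 lower. Leaving out each library gave 12 to 15 rises and 13 to 14 falls. In those fits 4334 to 4464 of all genes tested (14322 to 14347) were called higher and 4218 to 4333 lower. With the coefficient of variation set to 0.2 there were 9 rises and 10 falls, and against a fold of 1.5 there were 7 rises and 9 falls. The first lowered the adjusted p of some low-count genes (Cacng7 from 0.0395 to 0.0246, Kcnip4 from 0.0209 to 0.0109), so it is not harder for every gene. Over all genes they called 14.1% and 11% higher and 12% and 9.06% lower. Of the 27 called members, 16 were called under every alternative that tested them. Kcnj10, which was not called, changed sign with limma-voom (log2 -0.075) and ranged from -0.519 (without dexamethasone replicate 2) to 0.515 when 1 library was left out, and the cause was not tested. Library size scaling moved the median of all genes by 0.038 on the log2 scale. The replicate block gave 14 rises and 13 falls and changed the call of no tested member. Libraries with the same number did not deviate together (correlations of 0.003, -0.008 and 0.020), so the number was not taken as a pairing. Depth limits the 54 members with counts that were not tested, of which 26 had at most 6 counts in all. In the fit without the filter, 4693 of all 20392 genes were called higher and 4494 lower, a set that includes genes of every level. Of the 54 members, 3 were called there. Of these, 2, Cacnb2 and Kcnd3, were also tested and called in 4 of the filtered fits with 1 library left out. There they passed the filter through treated libraries only, so those calls are not separate support.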
